A study of Mus musculus with 6 samples.

Results

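The genes for the core of the spliceosome were examined in fully grown germinal vesicle (GV)-stage oocytes, the stage at which an oocyte rests before meiotic maturation. The 37 genes were every entry of the deposited expression table whose symbol begins with Snrp, U2af, Sf3a or Sf3b followed by a number, or Prpf followed by a number, out of 24255 entries. The rule reads the symbol alone. Of these 37, 27 reached 1 FPKM (fragments per kilobase of transcript, scaled to the library's mapped fragments) in at least 1 library and were tested, among 6398 tested genes in all.

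The spliceosome removes introns from pre-mRNA. The U1 particle recognises the 5′ splice site, and U2AF recognises the 3′ splice site and recruits the U2 particle to the branch point. The U4/U6.U5 tri-snRNP then joins and the complex is remodelled into its active form. Each of the U1, U2, U4 and U5 RNAs carries a ring of Sm proteins, encoded by Snrpb, Snrpd1, Snrpd2, Snrpd3, Snrpe, Snrpf and Snrpg. Fully grown oocytes store mRNAs made during growth and become transcriptionally quiet, so transcript levels at this stage are largely those of a stored pool.

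The samples were 3 wild-type (WT) and 3 Lsm14b-KO libraries on the C57BL/6J background, each made by Smart-seq2 from 20 oocytes of females primed with 5 IU PMSG 46 h before collection. Lsm14b encodes an LSM14-family protein that binds RNA. Lsm14b-KO females were homozygous for tm1a, a knockout-first allele made by a reporter-tagged insertion, present in every tissue of the animal. The age of the mice and whether the 3 libraries of a genotype came from separate females were not given in the sources used here, so p-values measure the spread between libraries, which may be technical.

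Lsm14b itself was at 2.77, 3.98 and 1.72 FPKM in WT and at 0, 0 and 0.102 FPKM in Lsm14b-KO (adjusted p = 0.00380, limma, at a log2 fold change of -1.85 with an SE of 0.25). All 15 oocyte markers, such as the zona pellucida genes, reached 1 FPKM, and 2 of them rose in Lsm14b-KO, Nobox (log2 difference 2.25, adjusted p = 0.00640) and Kit (0.84, adjusted p = 0.0441). Of 14 cumulus and granulosa markers, 7 were at 0 in all libraries (Amh, Cyp11a1, Foxl2, Inhba, Lhcgr, Npr2 and Nr5a1), and the sum of the list was 9.58 to 13.3 FPKM in WT and 5.82 to 9.41 FPKM in Lsm14b-KO. Most of that sum was Cyp19a1, which fell from a mean of 10.1 to 4.75 FPKM (adjusted p = 0.0426), while the means of Fshr (0.852 and 1.94 FPKM), Inha (0.130 and 0.516) and Kitl (0.223 and 0.503) were above WT in Lsm14b-KO. Fshr and Inha did not pass the test and Kitl was not tested. All 7 red blood cell markers found were at 0. Read counts were not used here. The steps between low FPKM values gave relative depths of 1.00, 1.14 and 1.03 in WT and 1.33, 1.95 and 2.17 in Lsm14b-KO, and the FPKM summed over all genes were 1141324 to 1244182 in WT and 564671 to 1029728 in Lsm14b-KO. The 2 quantities moved with genotype, and their part in the results below was not tested.

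The sequences before the starts of Snrpe, the most abundant of the 37, and Sf3b1, the 1 gene that rose in the comparison below, are shown first. Each is the 250 bases before the RefSeq transcription start (GRCm38.p6), 5′ to 3′ on the gene's strand: chr1:133610281-133610530 (minus strand) for Snrpe and chr1:55027479-55027728 (minus strand) for Sf3b1. The last 11 bases of the Snrpe window and the last 3 of the Sf3b1 window are within the GENCODE gene, whose start lies further upstream, and an exon of Gm26706, on the other strand, overlaps the Snrpe window. Capitals mark CGGAAG, a hexamer that contains the core bound by ETS-family factors, or its reverse complement CTTCCG. Neither window holds CCAAT, the box bound by NF-Y, or its reverse complement ATTGG.
Snrpe: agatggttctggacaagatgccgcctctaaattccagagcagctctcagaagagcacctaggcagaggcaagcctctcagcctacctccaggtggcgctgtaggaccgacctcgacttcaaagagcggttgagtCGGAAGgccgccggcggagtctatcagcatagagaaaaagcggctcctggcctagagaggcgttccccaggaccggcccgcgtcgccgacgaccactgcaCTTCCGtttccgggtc
Sf3b1: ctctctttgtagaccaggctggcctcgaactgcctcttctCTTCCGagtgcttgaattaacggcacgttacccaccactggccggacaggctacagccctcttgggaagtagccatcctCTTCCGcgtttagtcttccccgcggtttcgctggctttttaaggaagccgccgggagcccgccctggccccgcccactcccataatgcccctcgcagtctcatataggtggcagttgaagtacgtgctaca

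The CGGAAG hexamer, on either strand, was present in the upstream windows of 21 of the 30 members with a RefSeq window (70.0%), against 29.9% of 4807 tested genes and 15.3% of 27025 genes with a window. Snrpe and Sf3b1 each held it at 2 places, while the windows of Snrpf and U2af1 held none. CCAAT was found in 13 of 30 members (43.3%), against 43.3% of tested genes and 37.5% of all genes. Both motifs were picked after these windows had been seen, and a match is a run of letters, not a measured binding site.

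Levels differed over a wide range in WT oocytes, as the plot of log2(FPKM + 1) by library shows. The 6 genes at 100 FPKM or more were Snrpe, Snrpd1, Sf3b5, Snrpd2, Snrpb2 and Snrpg, of which 4 encode Sm ring proteins. Snrpe alone held 36.5% of the FPKM of the 37 genes in WT, and the first 5 together held 90.6%. Another 8 genes lay between 10 and 100 FPKM, 7 between 1 and 10, and 16 below 1. FPKM are per length, but the level still went down with transcript length (values below), and 12 of the 37 genes have near-identical copies that could take reads, so the order of levels is that of the deposited values.

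**Figure D1:**
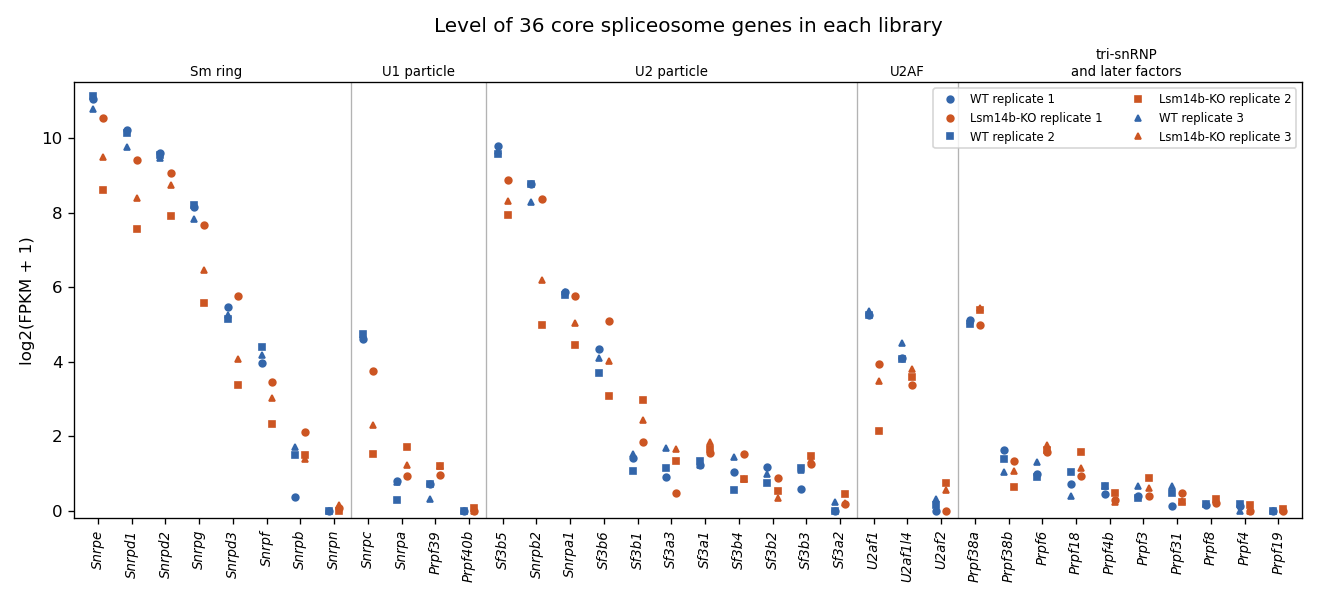
Level of 36 core spliceosome genes, log2(FPKM + 1) on the vertical axis, in the 3 WT (blue) and 3 Lsm14b-KO (orange) libraries, grouped by the particle the protein belongs to. Snrpe is highest at a WT mean of 2040 FPKM, and Prpf8 and Prpf19 are among those below 1 FPKM.

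The genes below 1 FPKM in WT included some that encode large proteins at the heart of the spliceosome. Prpf8, whose protein forms the scaffold of the catalytic centre, was at 0.104, 0.122 and 0.135 FPKM in WT and at 0.157, 0.249 and 0.224 FPKM in Lsm14b-KO. Prpf19, which encodes a ubiquitin ligase of the active spliceosome, was listed at 0 in all 3 WT libraries and at 0, 0.0233 and 0.0196 FPKM in Lsm14b-KO. Snrpn, the imprinted paralog of Snrpb expressed mainly in neurons, was listed at 0 in WT and at 0.0576, 0 and 0.106 FPKM in Lsm14b-KO. Prpf40b was the third gene listed at 0 in all WT libraries. These levels lie close to the detection limit of libraries whose read depth is not known. The relative depths were 1.00, 1.14 and 1.03 in WT and 1.33, 1.95 and 2.17 in Lsm14b-KO. Their part in the values of 0 in WT was not tested.

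In all, 10 of the 37 genes never reached 1 FPKM and were not tested: Prpf3, Prpf4, Prpf4b, Prpf8, Prpf19, Prpf31, Prpf40b, Sf3a2, Snrpn and U2af2. The highest of them was Prpf3, at 0.836 FPKM in 1 library, and the genes just inside the limit were Sf3b2 and Prpf39, with highest values of 1.27 and 1.30 FPKM. Among the 27 tested genes, 2 (Prpf39 and Snrpa) reached 1 FPKM in Lsm14b-KO libraries only and 1 (Sf3b2) in WT libraries only. When the limit was dropped, none of the 10 passed the limma test and none had an unadjusted p under 0.05.

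Between the genotypes, 6 of the 27 tested genes changed (22.2%; limma on log2(FPKM + 1), Benjamini-Hochberg adjusted p under 0.05), against 21.6% of all tested genes. Sf3b1 was the 1 gene that rose, where 6.38% of all tested genes rose. The 5 genes that fell were U2af1, Snrpc, Snrpd1, Sf3b5 and Snrpf, where 15.2% of all tested genes fell. The shares are near those of all genes, so the number of changes is no feature of the spliceosome genes. An unadjusted p under 0.05 was found for 14 of the 27 genes, against 39.4% of all tested genes. Of these 14, Prpf39 and Snrpa passed the filter through Lsm14b-KO alone. Each value is relative to the other RNA of its library, so a fall of a transcript and a rise of the other RNA cannot be told apart. Each library pooled 20 oocytes, so fewer transcripts per oocyte and a different share of oocytes with the transcript cannot be told apart either. The median log2 fold change was -0.34 over the 27 genes and -0.08 over all tested genes.

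The 3 Lsm14b-KO values all lay below the 3 WT values in 10 of the 27 genes (26.0% of all tested genes) and all above them in 6 (19.1%), 2 of which, Prpf39 and Snrpa, passed the filter through Lsm14b-KO alone, and the genotypes overlapped in 11. The groups were thus apart in 16 genes, against 45.0% of all tested genes.

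Fewer libraries gave fewer calls in all but 1 case. Leaving out any 1 of the WT libraries, or Lsm14b-KO replicate 3, left none of the 6 calls, and leaving out Lsm14b-KO replicate 2 left those of Sf3b5, Snrpc and U2af1. Over all tested genes the calls went from 1383 to between 315 and 462 in the first 4 cases and to 865 in the last. Over these 5 cases the log2 differences were -2.25 to -1.59 for U2af1, -2.21 to -1.66 for Snrpc, -1.34 to -1.07 for Sf3b5 and 0.81 to 1.18 for Sf3b1. In each of these genes the genotypes did not overlap, so leaving out 1 library could not reverse the sign. Without Lsm14b-KO replicate 1, 14 of the 27 genes changed (51.9%), against 45.3% of all tested genes. Of these, 3 rose (Prpf6, Sf3b1 and Snrpa, the last of which was tested only for its level in Lsm14b-KO) and 11 fell (Sf3b5, Snrpa1, Snrpb2, Snrpc, Snrpd1, Snrpd2, Snrpd3, Snrpe, Snrpf, Snrpg and U2af1). Lsm14b-KO replicate 1 was the Lsm14b-KO library nearest the WT mean in 21 of the 27 genes (77.8%), against 57.0% of all tested genes.

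The scale also mattered. Rescaling each library to the same total (TPM) raised the median log2 fold change of all tested genes by 0.48, quantile normalization by 0.14 and a correction for transcript length and GC content by 0.15. On the TPM scale the share of calls over all genes that were falls was 36.8%, against 70.5% on the deposited scale, 57.6% after quantile normalization and 58.1% after the correction. The medians of the 27 genes were then 0.02 on the TPM scale (all tested genes 0.40), -0.23 after quantile normalization (0.07) and -0.09 after the correction (0.07). On each scale the spliceosome genes' median lay below that of all tested genes.

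**Figure D2:**
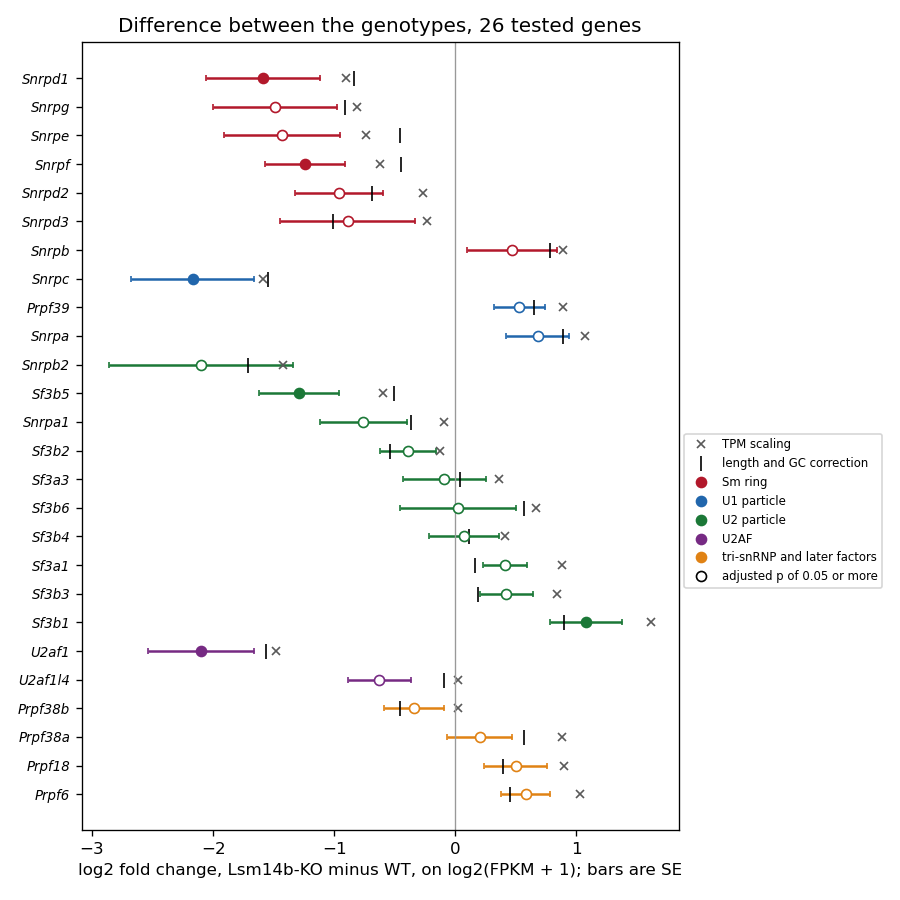
Log2 fold change, Lsm14b-KO minus WT, of 26 tested core spliceosome genes by group, with bars for the SE and filled points for an adjusted p under 0.05 (limma). Crosses give the value on the TPM scale and ticks the value after correction for length and GC content. Snrpc and U2af1, at -2.17 and -2.10, keep values of -1.59 and -1.48 on the TPM scale, while Sf3b5 moves from -1.29 to -0.60.

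Of the 7 Sm ring genes tested, 2 fell by the limma test (Snrpd1 and Snrpf), none rose, and 5 had an unadjusted p under 0.05. In 5 of the 7 the highest Lsm14b-KO value was under the lowest WT value. Over all tested genes 15.2% fell, 39.4% had an unadjusted p under 0.05 and 26.0% had Lsm14b-KO wholly under WT. Among tested genes with transcripts under 1500 nt, the length of all but 1 of the 7, these were 453, 827 and 727 of 2017. The median log2 fold change of the 7 ring genes was -1.24, and -0.62 on the TPM scale. Over the tested genes under 1500 nt it was -0.52, and -0.07 on the TPM scale. Summed over the 8 genes of the ring, Sm transcripts made up 0.356%, 0.381% and 0.317% of all FPKM in WT and 0.290%, 0.155% and 0.237% in Lsm14b-KO.

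Snrpd1, whose protein binds the Sm site as part of the SmD1-SmD2 pair, was at 1193, 1134 and 868 FPKM in WT and at 678, 188 and 333 FPKM in Lsm14b-KO. The WT mean was 1065 ± 173 FPKM and the Lsm14b-KO mean 400 ± 252 FPKM (SD, n = 3). The groups did not overlap, and the level fell by 1.59 on the log2 scale (SE 0.47, adjusted p = 0.0465, limma). The adjusted p was 0.0536 on the TPM scale, with a log2 fold change of -0.90. Without a single library it lay between 0.00219 (Lsm14b-KO replicate 1 left out) and 0.161 (WT replicate 1 left out).

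Snrpf, which encodes the SmF protein, was at 14.5, 20.0 and 17.2 FPKM in WT and at 9.96, 4.01 and 7.20 FPKM in Lsm14b-KO. No Lsm14b-KO value reached the lowest WT value, and the level fell by 1.24 on the log2 scale (SE 0.33, adjusted p = 0.0342, limma). On the TPM scale it was -0.62, with an adjusted p of 0.119. The gene lies on chromosome 10 at 93583029 to 93589706 on the minus strand (GRCm38), and its deposited locus is shared with 4933408J17Rik and Ccdc38. Whether the counting used strand was not stated, so reads of these neighbours cannot be told apart from those of Snrpf.

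Snrpe, whose protein forms a trimer with SmF and SmG, was at 2122, 2235 and 1762 FPKM in WT and at 1504, 389 and 728 FPKM in Lsm14b-KO. It ranked 108 among all genes by its WT mean. The log2 fold change of -1.43 (SE 0.48) had an adjusted p of 0.0653 (limma), above the threshold, although the groups did not overlap. The spread among the Lsm14b-KO libraries was wide, with replicate 1 at 73.7% of the WT mean, replicate 2 at 19.1% and replicate 3 at 35.7%. Snrpg was at 283, 292 and 226 FPKM in WT and at 201, 47.1 and 86.6 FPKM in Lsm14b-KO, the same order of libraries as for Snrpe. Snrpd2 was at 709 to 771 FPKM in WT and 238 to 537 FPKM in Lsm14b-KO, and Snrpd3 at 34.3 to 43.6 and 9.37 to 53.6 FPKM. Neither Snrpg, Snrpd2 nor Snrpd3 passed the test (adjusted p = 0.0681, 0.0899 and 0.261, limma).

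Snrpb, which encodes SmB, stood apart from the rest of the ring by its level. It was at 0.296, 1.80 and 2.27 FPKM in WT and at 3.30, 1.82 and 1.61 FPKM in Lsm14b-KO, and the groups overlapped. The fitted log2 difference was 0.47 (SE 0.37, adjusted p = 0.359, limma). It was the only Sm ring gene among the 7 tested with a fitted value above 0. Its WT mean of 1.45 ± 1.03 FPKM (SD, n = 3) compares with WT means of 17.2 to 2040 FPKM for the 6 other ring genes tested, whose proteins are present once each in a ring.

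Among the U1 particle genes, Snrpc fell and the other 3 tested did not pass the test. Snrpc encodes U1-C, which stabilises the pairing of U1 RNA with the 5′ splice site. It was at 23.3, 25.7 and 25.4 FPKM in WT and at 12.5, 1.85 and 3.92 FPKM in Lsm14b-KO. The WT libraries lay close together at 24.8 ± 1.34 FPKM, and the Lsm14b-KO libraries at 6.09 ± 5.64 FPKM (SD, n = 3), a mean 4.07 times lower. Its log2 difference of -2.17 (SE 0.51, adjusted p = 0.0247, limma) was the largest among the 27. It was -1.59 on the TPM scale (adjusted p = 0.0340) and -1.55 after the length and GC correction (adjusted p = 0.0255). The gene lies on chromosome 17 at 27838150 to 27851968 on the plus strand, and 3 annotated pseudogenes share at least 95% identity with its transcript over at least 200 nt, so that the authors' alignment could have split reads among them. Snrpd1 and Snrpf have 1 such copy each.

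Snrpa, which encodes the U1-A protein that binds a stem-loop of U1 RNA, was at 0.742, 0.215 and 0.713 FPKM in WT and at 0.922, 2.28 and 1.35 FPKM in Lsm14b-KO. Its fitted log2 difference was 0.68 (SE 0.26, adjusted p = 0.0998, limma). Prpf39, a U1-associated factor, had a fitted value of 0.53 (adjusted p = 0.103). Both genes reached 1 FPKM in Lsm14b-KO libraries only, and so entered the test through the group where they are higher, and their values are given as a description. Prpf39 shares its deposited locus with Fkbp3, and Snrpa with BC024978.

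The U2 particle genes went both ways, with 1 of 10 tested rising, 1 falling and a median log2 fold change of -0.03. The gene that rose was Sf3b1, which encodes the large SF3b subunit that clamps the branch site helix. It was at 1.65, 1.11 and 1.89 FPKM in WT and at 2.62, 6.84 and 4.41 FPKM in Lsm14b-KO, 2.98 times higher in the mean. All Lsm14b-KO libraries were above all WT libraries. On the log2 scale the rise was 1.08 (SE 0.30, adjusted p = 0.0406, limma), 1.62 on the TPM scale (adjusted p = 0.0422) and 0.90 after the length and GC correction (adjusted p = 0.0433). With a single library left out, its adjusted p lay between 0.00554 (without Lsm14b-KO replicate 1) and 0.147 (without WT replicate 2). Sf3b1 lies on chromosome 1 at 54985169 to 55027481 on the minus strand, overlaps no annotated gene and had no near-identical copy.

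Sf3b5, which encodes a small subunit of the same SF3b complex, fell. It was at 882, 767 and 805 FPKM in WT and at 469, 246 and 320 FPKM in Lsm14b-KO, with means of 818 ± 58.7 and 345 ± 113 FPKM (SD, n = 3). No Lsm14b-KO library came near the lowest WT library. On the log2 scale the difference was -1.29 (SE 0.33, adjusted p = 0.0295, limma), and -0.60 on the TPM scale (adjusted p = 0.0536) and -0.51 after the length and GC correction (adjusted p = 0.0943). Sf3b5 lies on chromosome 10 at 13005343 to 13009183 on the plus strand and had no near-identical copy. The ratio of Sf3b5 to Sf3b1 was 535, 688 and 425 in WT and 179, 36.0 and 72.4 in Lsm14b-KO. A library's total drops out of this ratio, but a shift with transcript length does not, and the transcripts are 735 and 6195 nt long. Both genes were also picked for their changes in these libraries, so the ratio is given as a description.

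Snrpb2 and Snrpa1 encode U2-B″ and U2-A′, which bind U2 RNA together. Snrpb2 was at 436, 437 and 310 FPKM in WT and at 327, 30.4 and 71.7 FPKM in Lsm14b-KO. Lsm14b-KO replicate 1 lay among the WT libraries while the other two lay far below them. The fitted log2 difference was -2.10 (SE 0.76, adjusted p = 0.0805), and -3.03 without Lsm14b-KO replicate 1 (adjusted p = 0.00137, limma). Snrpa1 was at 57.5, 54.6 and 57.7 FPKM in WT and at 53.1, 20.9 and 32.1 FPKM in Lsm14b-KO, again with replicate 1 nearest to WT. Its fitted log2 difference was -0.76 (SE 0.36, adjusted p = 0.155). The ratio of Snrpb2 to Snrpa1 was at least 5.37 in each WT library and 6.15, 1.45 and 2.23 in Lsm14b-KO.

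The rest of the U2 genes did not pass the test. Sf3a1, an SF3a subunit, was at 1.35, 1.52 and 1.36 FPKM in WT and at 1.91, 2.16 and 2.57 FPKM in Lsm14b-KO, with no overlap (log2 fold change 0.41, SE 0.18, adjusted p = 0.135, limma). Sf3b4, an SF3b subunit that contacts pre-mRNA near the branch point, was at 1.06, 0.462 and 1.70 FPKM in WT and at 1.85, 0.815 and 0.807 FPKM in Lsm14b-KO, with a fitted value of 0.07 (adjusted p = 0.875). Sf3b2, Sf3b3, Sf3b6 and Sf3a3 had fitted values between -0.39 and 0.42. Sf3b6 ranged from 7.51 to 33.1 FPKM over the Lsm14b-KO libraries alone.

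U2AF is a pair of a small subunit, which reads the AG at the intron end, and a large subunit, which reads the polypyrimidine tract. U2af1, the small subunit, fell. It was at 37.2, 37.5 and 39.9 FPKM in WT and at 14.3, 3.44 and 10.1 FPKM in Lsm14b-KO, with means of 38.2 ± 1.51 and 9.30 ± 5.48 FPKM (SD, n = 3). The WT libraries lay close together and far above all 3 Lsm14b-KO libraries. On the log2 scale the difference was -2.10 (SE 0.44, adjusted p = 0.0164, limma), -1.48 on the TPM scale (adjusted p = 0.0283) and -1.56 after the length and GC correction (adjusted p = 0.0153). The adjusted p was 0.0773 at most when a single library was left out, with WT replicate 1 missing. U2af1 lies on chromosome 17 at 31647081 to 31658892 on the minus strand, and 2 pseudogenes are near-identical to its transcript.

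U2af1l4, a paralog of U2af1, was at 16.1, 15.7 and 21.8 FPKM in WT and at 9.38, 11.1 and 13.1 FPKM in Lsm14b-KO. Its fitted log2 difference was -0.63 (SE 0.26, adjusted p = 0.113, limma), and 0.02 on the TPM scale. The ratio of U2af1 to U2af1l4 was 2.31, 2.39 and 1.83 in WT and 1.53, 0.311 and 0.772 in Lsm14b-KO. By FPKM, U2af1 was thus the higher of the pair in all 3 WT libraries and in 1 Lsm14b-KO library. U2af1 was called as falling in these same libraries, and its 2 near-identical pseudogenes could take reads. The ratio is therefore given as a description. U2af2, the large subunit, was at 0, 0.114 and 0.253 FPKM in WT and at 0, 0.670 and 0.479 FPKM in Lsm14b-KO, too low to be tested.

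None of the 4 tested genes for the tri-snRNP and later factors passed the limma test, and 1 had an unadjusted p under 0.05. That gene was Prpf6, which bridges U5 and U4/U6, with a fitted log2 difference of 0.58 (SE 0.20, adjusted p = 0.0682) and groups that did not overlap. On the TPM scale it was 1.03 with an adjusted p of 0.0410. Prpf18, Prpf38a and Prpf38b had fitted values of 0.50, 0.20 and -0.34. Prpf38a, needed for activation of the spliceosome, was the one gene of this group above 10 FPKM, at 31.2 to 33.8 FPKM in WT and 30.6 to 42.7 FPKM in Lsm14b-KO. Among the untested genes, Prpf3, a U4/U6 protein, was at 0.305, 0.267 and 0.592 FPKM in WT and at 0.306, 0.836 and 0.515 FPKM in Lsm14b-KO. Its partner Prpf4 was at 0.101, 0.133 and 0 FPKM in WT and at 0, 0.104 and 0 FPKM in Lsm14b-KO. Prpf31, which binds the U4 snRNA, was at 0.0877, 0.385 and 0.597 FPKM in WT and at 0.397, 0.180 and 0.202 FPKM in Lsm14b-KO.

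Transcript length went along with both level and change among the spliceosome genes. The 13 genes with an annotated transcript under 1500 nt were all tested, and 5 of them fell, none rose and 10 had an unadjusted p under 0.05 (limma). Those 10 include Snrpa, which was higher in Lsm14b-KO and passed the filter through that group alone. The median log2 fold change of the 13 genes was -1.24, against -0.52 over 2017 tested genes under 1500 nt. Of those 2017, 453 fell, 43 rose and 827 had an unadjusted p under 0.05. Of the 24 longer genes, 14 were tested, 1 rose and none fell, and 4 had an unadjusted p under 0.05. Those 4 include Prpf39, which also passed the filter through Lsm14b-KO alone. The median of the 14 tested genes was 0.14, equal to the 0.14 of 4301 tested genes of that length. Of those 4301, 357 rose, 508 fell and 1657 had an unadjusted p under 0.05. In the short class, 10 genes had all Lsm14b-KO values below all WT values, and in the long class none had, against 727 of the 2017 shorter and 911 of the 4301 longer tested genes. No test was made of whether the members differ from other genes of their length.

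Spearman's rho between length and log2 fold change was 0.67 across the 27 tested members and 0.37 across 6318 tested genes with a length. Between length and the mean WT log2(FPKM + 1) it was -0.67 across the 37 members and -0.29 across all tested genes with a length. These points share their libraries, and FPKM are divided by length, so the values describe these libraries. After the correction for length and GC content the rho for the change was 0.40 across the members. The median change of the 13 short genes was then -0.46, with 0.04 over all tested genes of that length. The order of the members by length can be followed in the plot of length against change.

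**Figure D3:**
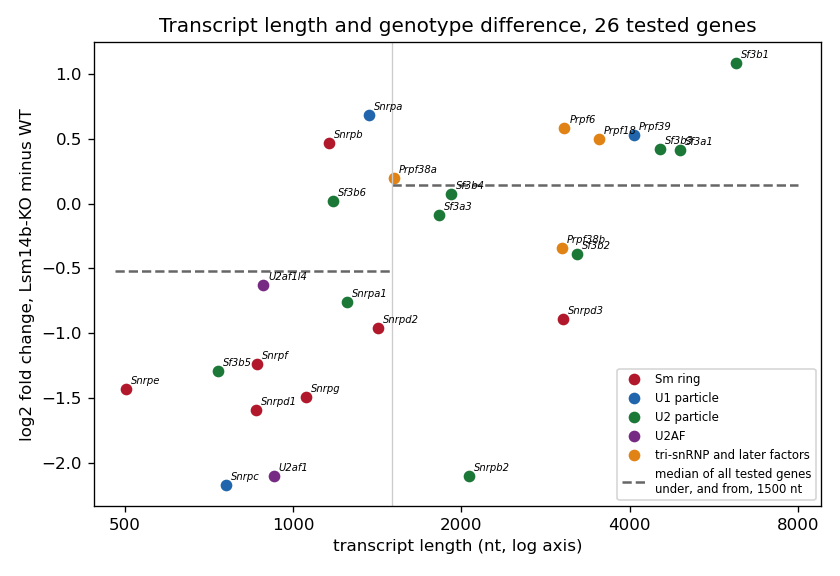
Annotated transcript length (nt, log axis) against log2 fold change, Lsm14b-KO minus WT, of 26 tested core spliceosome genes, coloured by group. Dashed lines give the median of all tested genes under 1500 nt (-0.52) and of 1500 nt or more (0.14). Of the 13 shorter genes, 10 lie below 0, with Snrpa, Snrpb and Sf3b6 above it.

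The plot of the short genes by library shows how unequal the 3 Lsm14b-KO libraries were. Replicate 2 was the lowest of them in most of the abundant genes, at 17.6% of the WT mean for Snrpd1, 9.01% for U2af1 and 7.46% for Snrpc. Replicate 1 was at 63.7%, 37.4% and 50.4% for the same genes. Over the 13 short genes the median difference from the WT mean, on log2(FPKM + 1), was -0.46 in replicate 1, -1.73 in replicate 2 and -1.14 in replicate 3. Replicate 2 also had the smallest FPKM sum over all genes, and whether that sum contributed to the order was not tested.

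**Figure D4:**
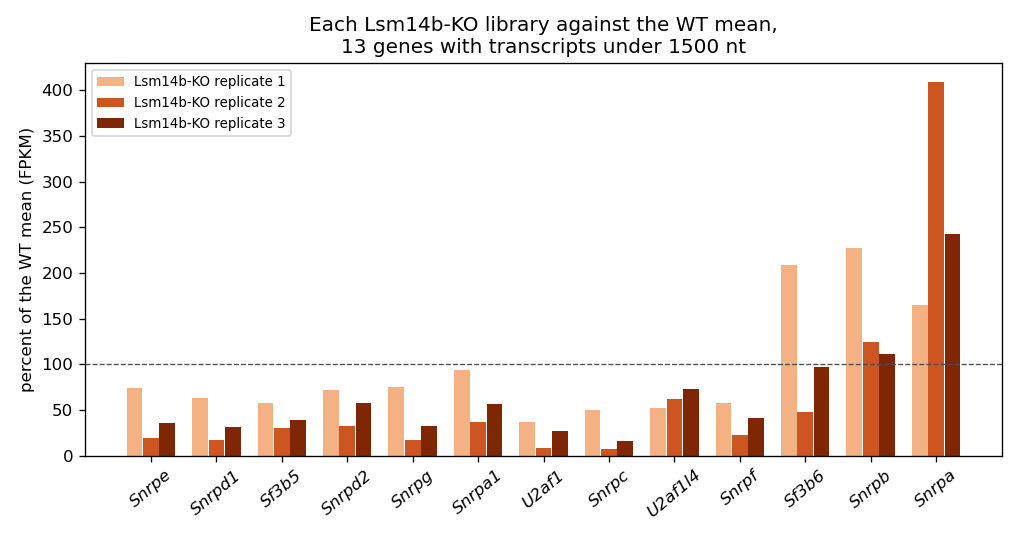
Level in each Lsm14b-KO library as a percent of the WT mean (FPKM), for the 13 core spliceosome genes with transcripts under 1500 nt, in order of WT mean. The dashed line marks the WT mean. For Snrpc the 3 libraries stand at 50.4%, 7.46% and 15.8%, while all 3 stand above the line for Snrpb and Snrpa. The genotypes overlap for Snrpb, and Snrpa passed the filter through Lsm14b-KO alone.

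Other genes of the pathway were read from a list of spliceosome genes outside the naming rule, of which 60 were in the table and 42 were tested. Of these, 5 changed (11.9%, against 21.6% of all tested genes), all of them downward. An unadjusted p under 0.05 was found for 13 of the 42, against 39.4% of all tested genes. Snrnp27, a tri-snRNP protein, was at 507, 527 and 423 FPKM in WT and at 104, 16.7 and 40.1 FPKM in Lsm14b-KO (log2 fold change -3.51, SE 0.59, adjusted p = 0.00751, limma). Zcrb1, of the minor U11/U12 particle, fell by 1.12 on the log2 scale (adjusted p = 0.0399), the SF3b subunit Phf5a by 1.07 (adjusted p = 0.0450) and Syf2 by 0.92 (adjusted p = 0.0402). The last of the 5 was Usp39, which fell by 0.70 (adjusted p = 0.0293, limma). It reached 1 FPKM in WT libraries only, and so entered the test through the group where it is higher. On the TPM scale Snrnp27 stood at -2.84 (adjusted p = 0.00575, limma), while Zcrb1, Phf5a, Syf2 and Usp39 no longer passed. On that scale 3 genes of the list that had not passed before were higher (Bcas2, Dhx15 and Htatsf1, at 0.99, 0.85 and 0.91). Over all 6398 tested genes, 833 were called higher on the TPM scale. Dhx15 reached 1 FPKM in Lsm14b-KO libraries only, and so entered the test through the group where it is higher. Without any 1 WT library, or without Lsm14b-KO replicate 3, 1 gene of the list passed, Snrnp27 (adjusted p = 0.0443 to 0.0497, limma). Over all 6398 tested genes, 315 to 462 passed in those cases. Without Lsm14b-KO replicate 2, 2 of the 42 passed, against 865 of the 6398. Without Lsm14b-KO replicate 1, 17 of the 42 passed, against 45.3% of all tested genes.

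Genes that build the Sm ring onto snRNA, of the SMN complex, the methylosome and snRNP import, were tested in 7 of 14 cases. Of these 7, 3 fell and none rose, and 3 had an unadjusted p under 0.05. Over all tested genes 15.2% fell, and 39.4% had an unadjusted p under 0.05. The 3 that fell have transcripts under 1500 nt, and of 2017 tested genes of that length 453 fell and 827 had an unadjusted p under 0.05. Gemin6, an SMN complex protein with an Sm-like fold, was at 458, 447 and 367 FPKM in WT and at 109, 33.9 and 61.3 FPKM in Lsm14b-KO (log2 fold change -2.77, SE 0.43, adjusted p = 0.00588, limma). Its partner Gemin7 was at 701, 632 and 587 FPKM in WT and at 236, 176 and 197 FPKM in Lsm14b-KO (log2 fold change -1.66, SE 0.28, adjusted p = 0.00778). Smn1, the gene the complex is named for, fell by 1.78 on the log2 scale (SE 0.46, adjusted p = 0.0316). All 3 were also called on the TPM scale, at -2.09, -0.97 and -1.18 (adjusted p = 0.00379, 0.0246 and 0.0470). Gemin6 also passed without any 1 of the 6 libraries (adjusted p = 0.0425 at most), while Smn1 passed only when the library left out was Lsm14b-KO replicate 1. Gemin7 did not pass without WT replicate 1, WT replicate 2 or Lsm14b-KO replicate 3 (adjusted p = 0.0523 to 0.0574). Without Lsm14b-KO replicate 1, 5 of the 7 tested genes of the list passed, against 45.3% of all tested genes.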

How the data were processed

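RNA-Seq was made from 3 WT and 3 Lsm14b-KO samples of 20 GV-stage oocytes by Smart-seq2. The authors aligned trimmed reads to mm10 with TopHat2 2.0.13 and computed FPKM with Cufflinks 2.2.1; the annotation and the strand setting are not given in the sources used here, and 2 library kits are named in different places. The deposited table holds 1 FPKM value per gene and library, which is normalized and not a count. It also holds the authors' own comparison from Cuffdiff (a log2 ratio, a p-value and a q-value), which was not used. FPKM divide by length, and their sums differed between libraries, so TPM scaling, quantile normalization and a loess correction (span 0.5) for length and GC content were tried.

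The 6398 genes that reached 1 FPKM in any library were compared on log2(FPKM + 1), a scale that understates changes of low genes, with limma 3.58.1 in R 4.3.3 (lmFit, eBayes with an intensity trend, two-sided, Benjamini-Hochberg over all tested genes, threshold 0.05). The script was tested on simulated data. An exact permutation test of 3 against 3 cannot go below p = 0.1. SE is that of the log2 fold change. Read depth was not known, so no counting interval is given; relative depths came from whole-read steps between low values.

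Groups came from the labels. Transcript length, GC content and gene positions came from GENCODE (GRCm38), near-identical copies from blastn 2.17.0, and upstream windows from RefSeq; 98.7% of tested genes had a length. The members and lists were chosen with earlier results of these data known. Named were Lsm14b, every member with an adjusted p under 0.05, a set of members chosen for their roles whatever their p (Snrpb, Snrpn, Snrpe, Snrpa, Snrpc, Snrpa1, Snrpb2, Sf3a1, Sf3b1, Sf3b4, U2af1, U2af2, Prpf3, Prpf4, Prpf8, Prpf19 and Prpf31), the members at the filter's edge, and of each other list at most 4 rises and 4 falls among those past the threshold. Further members, and Usp39, are named with values that were seen first. Values of 1 tested member are not reported here, although it enters the counts and medians.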

Additional observations from a re-analysis of the deposited data

How the results depend on the processing

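Of 34 named genes recomputed under up to 17 alternatives (Prpf39 and Sf3b2, under 1 FPKM in the mean, had 16; Usp39 and the untested members were not recomputed), 29 kept their direction in each one run, and the numbers of calls moved most. Members higher and lower numbered 1 and 5 as reported. They were 0 higher with a pseudocount of 0.01, 0 and 1 without the filter, 2 and 2 on the TPM scale, 2 lower after quantile normalization, and 2 and 3 after the length and GC correction. After the correction 1 of the 2 higher was Snrpa, which passed the filter through Lsm14b-KO alone. All tested genes called were 1383, and 720 without the filter. Higher and lower they were 408 and 975 as reported, 307 and 823 with a pseudocount of 0.01, and 178 and 542 without the filter. They were 833 and 486 on the TPM scale, 540 and 735 after quantile normalization, and 590 and 819 after the correction. The members' median log2 difference was -0.64 with a pseudocount of 0.01, 0.02 without the filter (which adds the untested members) and 0.02 on the TPM scale, against -0.34. Other spliceosome genes called were 5, and 1 without the filter, 2 after quantile normalization and 1 with the replicate block, with or without the correction. Between WT and Lsm14b-KO libraries of the same replicate number, deviations from the genotype mean correlated at 0.19, -0.13 and 0.02. With 3 libraries per genotype, these values cannot show whether the libraries were paired. With the replicate block 0 members rose and 3 fell, where 353 and 891 of all tested genes did. With the block and the correction 0 rose and 2 fell, where 542 and 769 did. Leaving out 1 library in turn gave 315 to 2898 calls over all genes, 0 to 3 members higher, 0 to 11 lower, 1 to 17 other spliceosome genes and 1 to 5 Sm assembly genes; without Lsm14b-KO replicate 1 the counts were highest. Directions reversed for 5 genes, none of them called in the reported test. Where the genotypes did not overlap, leaving out 1 library could not reverse a direction. On the TPM scale Prpf38b stood at 0.02, U2af1l4 at 0.02 and Sf3a3 at 0.36. After the length and GC correction, with and without the replicate block, Sf3a3 stood at 0.04. Leave-one-out values were 0.13 and 0.25 for Sf3a3, and ranged from -0.16 to 0.28 for Sf3b4 and from -0.49 to 0.51 for Sf3b6. The cause was not tested. Depth was not known and limits what can be said of genes under 1 FPKM.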
